A study of Mus musculus with 15 samples.

Results

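The genes described here are 59 listed genes of mouse chromosome 14, a set named for its higher RNA signal in 2 lung-derived lines than in the line they came from. They were chosen by the mean log2 signals of L1P, L2P and E1KD on these same arrays, so the differences between the lung lines and that parent line are given as a description, without a test. Of the 59 genes, 56 had a probe set that carries 1 gene symbol. Bnip3l, which encodes a mitophagy receptor, Esd and Uchl3 were only on probe sets shared with another symbol and have no value here. A mean log2 signal above 6 over all 15 arrays, the level set for averaging, was reached by 47 of the 56 genes, and 9 lay at or below it: Peli2, Xpo4, Trim13, Scara3, Esco2, Fzd3, Hmbox1, Rb1 and Uggt2. The whole table held 18193 genes, 8209 of them above 6, and 263 of those were on chromosome 14. The name of the set did not hold for each gene: 7 of the 56, among them Clu and Scara3, had a mean signal over both lung lines below that in E1KD.

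RNA was measured on Affymetrix mouse arrays in 5 related mammary epithelial lines, with 3 arrays per line. NMuMG is the wild-type, non-tumorigenic parent, a normal murine mammary gland line without selection in mice. E1KD is NMuMG in which hnRNP E1, an RNA-binding protein encoded by Pcbp1, was silenced, also without selection in mice. M1P, L1P and L2P all carry the silencing and were selected in NOD/SCID mice after injection into the mammary fat pad: M1P was isolated from a tumour that E1KD cells formed there, L1P from lungs of mice given E1KD cells, and L2P from lungs of mice given L1P cells. Each is 1 line, no line with a control vector was among the 15 arrays, and no label tells if a line's arrays stem from different cultures. The p-values below therefore measure the spread between these arrays, which may be technical, and L1P and L2P are not independent derivations.

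As background, the RNA level of a gene follows the number of copies of its chromosome as well as its own regulation. When a cell gains a chromosome or a long part of it, the transcripts of most genes in that stretch rise together by a similar factor, while strongly regulated genes depart from it. Cultured mouse lines often differ in such gains and losses, and selection in an animal can change which of them a population carries. DNA copy number was not measured here. A step from 2 to 3 copies would correspond to a log2 difference of 0.58 if RNA followed copies exactly, which serves below as an arithmetic mark only.

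The arrays were first compared as a whole. Arrays of a line correlated at 0.989 to 0.994 in NMuMG, 0.992 to 0.995 in E1KD, 0.994 to 0.995 in L1P and 0.983 to 0.998 in L2P, but at only 0.920 to 0.976 in M1P, where arrays 1 and 2 stood apart from array 3. M1P array 1 was the lowest of all 15 arrays for 26 of the 47 listed genes above 6 (55.3%) and for 36.1% of all genes above 6. The 3' minus 5' log2 difference of the array's Actb control probe sets was 0.64 and 0.68 on M1P arrays 1 and 2 against 0.68 to 0.98 on the other 13 arrays. For Gapdh it was 0.25 and 0.27 against 0.19 to 0.45. Medians and tests for M1P below are therefore given with and without those arrays. Pcbp1, the silenced gene, had a log2 signal of 12.68 ± 0.10 (SD, n = 3) for NMuMG, against 9.25 ± 0.22 for E1KD, 9.83 ± 0.36 for M1P (9.41 on array 3), 8.49 ± 0.42 for L1P and 8.15 ± 0.18 for L2P. The epithelial markers Krt8, Krt18 and Cdh1 were above 10 in every line, whereas Epcam, Cldn3, Krt5 and Krt14 lay below 6 in every line and Krt7 was above 6 only in NMuMG. Over 10 measured leukocyte markers the mean log2 signal of an array was 4.44 to 4.55 in E1KD, 4.46 to 4.66 in L1P and 4.57 to 4.90 in L2P, and Ptprc, the pan-leukocyte marker, stayed below 3 in every line. Of the 10, Cd14 was above 6 in every line and had a lower mean in both lung lines than in E1KD. Cd68, a macrophage lysosomal protein, read 5.01 ± 0.12 (SD, n = 3) for E1KD, 5.65 ± 0.22 for L1P and 6.18 ± 0.28 for L2P, and Lyz2, lysozyme, 4.19 ± 0.05, 5.03 ± 0.20 and 5.20 ± 0.45. All lung arrays of both genes lay above those of E1KD. Of the 10 markers, however, only 4 had a higher mean in L1P than in E1KD and only 4 in L2P, and the others were lower. Csf1r, for example, had means of 5.04 in E1KD, 4.78 in L1P and 4.83 in L2P. The part of leukocytes in the differences below was not tested. The 20 endothelial, fibroblast, alveolar and airway, and erythroid markers measured had line means below 6 with 1 exception, the airway marker Foxj1, at 7.54 ± 1.00 in M1P (6.44 on array 3) against 5.38 ± 0.21 in NMuMG.

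The listed genes were higher in both lung lines than in E1KD by a similar amount. Over the 47 genes above 6, the median log2 difference was 0.72 for L1P (quartiles 0.45 and 0.90, 1.65-fold) and 0.60 for L2P (0.44 and 0.85, 1.52-fold). In L1P 45 of the 47 were higher than in E1KD, and in L2P 43 of the 47. The same median over all 8209 genes above 6 was 0.02 for L1P and 0.01 for L2P. Of the other 216 chromosome 14 genes above 6, 93.5% were higher in each lung line, with medians of 0.57 and 0.54, so the rest of the chromosome stood above E1KD as well. In bulk RNA, a higher level in every cell and a larger share of cells with a higher level cannot be told apart. The 7934 genes on other chromosomes had medians of 0.01 and 0.00.

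Array by array, the median of the listed genes relative to each gene's E1KD mean was 0.71, 0.66 and 0.76 in L1P and 0.50, 0.77 and 0.65 in L2P. It was -0.01, -0.07 and 0.05 in E1KD, 0.06, 0.12 and 0.16 in NMuMG, and -0.59, -0.02 and -0.10 in M1P. All 6 lung arrays lay above all 9 others, and L2P array 1 and M1P array 1 were the lowest of their lines. Genes on other chromosomes had array medians between -0.08 and 0.15 on the same scale.

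**Figure D1:**
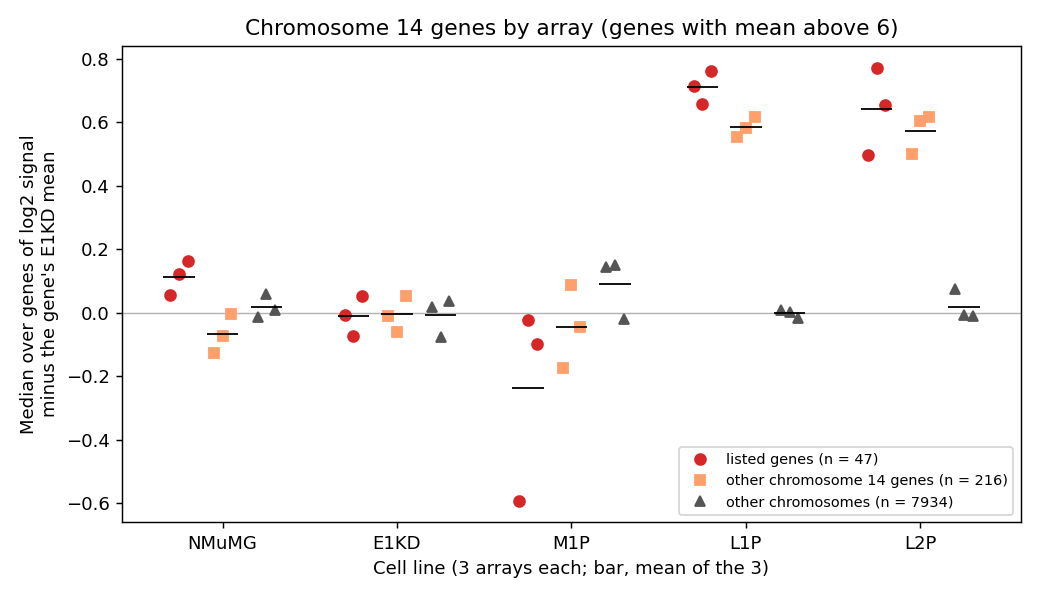
Median log2 signal minus the gene's E1KD mean, for each array of the 5 lines, over 47 listed genes, 216 other chromosome 14 genes and 7934 genes on other chromosomes with a mean above 6; short bars are the mean of a line's 3 arrays. The listed genes sat at 0.50 to 0.77 in the lung lines and at -0.59 to 0.16 elsewhere, and M1P array 1 stood alone at -0.59.

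Relative to NMuMG, the listed genes had medians of 0.57 in L1P and 0.53 in L2P, and 39 of the 47 were higher in each. The other 216 chromosome 14 genes had larger medians, 0.81 and 0.75, with 88.0% and 87.0% higher. All genes above 6 had 0.02 and 0.03. E1KD itself was slightly lower than NMuMG, with a median of -0.13 and 28 of 47 genes lower, against a median of -0.0032 over all genes above 6. M1P had a median of -0.38 against E1KD and -0.56 against NMuMG, where all genes above 6 had 0.06 and -0.07. With M1P array 3 alone, these were -0.10 and -0.14. Both lung lines thus had the listed genes above E1KD, and the median of the 1 tumour line was below it. The choice of the genes by lung and E1KD signals may shift these medians.

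Among the 20 chromosomes with at least 100 genes above 6, chromosome 14 had the highest median in the lung lines. Its 263 genes, the 47 listed ones included, had a median of 0.60 in L1P and 0.56 in L2P against E1KD, 1.49-fold in the mean of both lines. Chromosome 12 came next at 0.18 and 0.16, and chromosome 19 was lowest at -0.37 and -0.40. The arithmetic mark was 0.58. Over the 47 listed genes above 6 the medians were 0.72 and 0.60, but the signals of the lung lines and E1KD had chosen these genes. Over all 56 measured listed genes the L2P median was 0.57. The part of copy number in these differences was not tested.

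**Figure D2:**
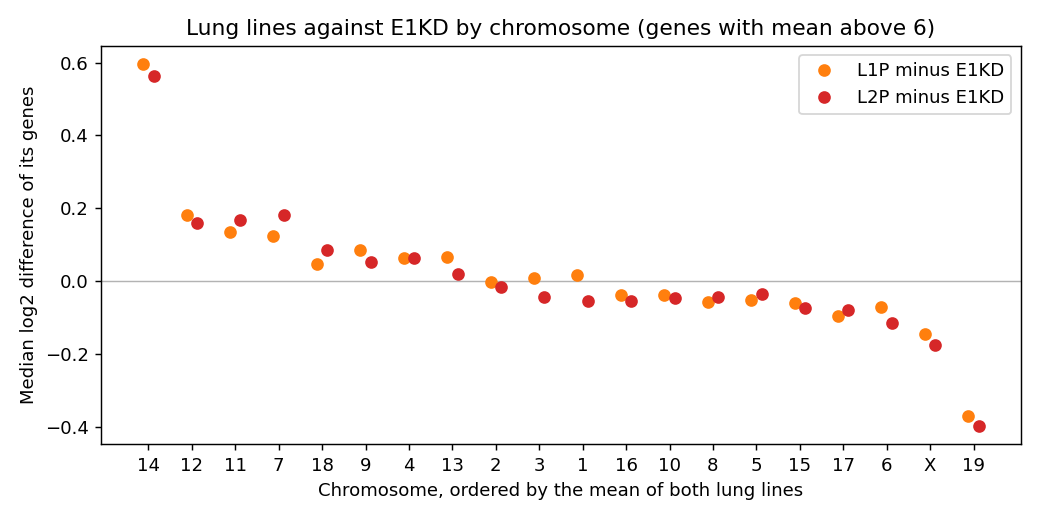
Median log2 difference of L1P and of L2P from E1KD for each of 20 chromosomes, over genes with a mean above 6. Chromosome 14 stood at 0.60 and 0.56, chromosome 12 next at 0.18 and 0.16, and chromosome 19 lowest at -0.37 and -0.40.

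Gene by gene, the arrays of the lung lines were mostly separated from those of E1KD. All 3 L1P arrays lay above all 3 E1KD arrays for 38 of the 47 listed genes, against 16.7% of all genes above 6. For L2P this held for 31 of 47, against 15.3%. All 6 lung arrays lay above E1KD for the same 31 genes, against a background of 10.4%, and for 126 of the other 216 chromosome 14 genes. Leaving out L2P array 1 brought the 31 to 38, and the number among all 8209 genes above 6 from 857 to 1150. For 0 of the 47 genes did all 6 lung arrays lie below E1KD, a pattern that 8.61% of all genes above 6 had and 3 other chromosome 14 genes had. Since these arrays chose the genes, nothing is read from the gap between these counts and their backgrounds.

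Relative to NMuMG, all 6 lung arrays were higher for 27 of the 47 genes, with a background of 18.1%, and for 138 of the other 216 chromosome 14 genes. All 3 E1KD arrays lay above NMuMG for 5 listed genes, where the background was 23.3%, and below NMuMG for 15, where it was 27.5%. The other 216 chromosome 14 genes had 76 and 57 in these directions. The lung lines and E1KD chose the listed genes, so nothing is read from these gaps either.

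By role, the counts of genes with every lung array above every E1KD array below stand beside 31 of the 47 listed genes (66.0%), 58.3% of the other chromosome 14 genes and 10.4% of all genes above 6, and no role is read as set apart. Of the genes of cell division and replication, all 6 above 6, Wdhd1, Dlgap5, Cdkn3, Haus4, Pbk and Pinx1, had no overlap with E1KD, with mean lung differences of 0.33 to 0.97 and a median of 0.79. Haus4, a subunit of the augmin complex that nucleates spindle microtubules, was the highest of them, and Pbk, a mitotic kinase, the lowest. Rb1, the retinoblastoma protein that restrains entry into S phase, had a mean of 5.73 and stayed outside the averages. Its log2 signals were 5.24, 4.69 and 4.77 (NMuMG), 5.36, 6.31 and 6.45 (E1KD), 3.24, 4.54 and 5.10 (M1P), 6.36, 7.18 and 7.06 (L1P) and 5.06, 7.20 and 7.33 (L2P). Lung values of Rb1 overlapped those of E1KD, with L1P array 1 and L2P array 1 below the highest E1KD array, and the differences were 0.83 (L1P) and 0.49 (L2P). Esco2, the cohesin acetyltransferase, stood just below the level of 6 with a mean of 5.92, and read 6.19, 4.63 and 5.77 (NMuMG), 5.39, 6.88 and 6.05 (E1KD), 2.82, 3.62 and 6.40 (M1P), 6.33, 6.53 and 7.54 (L1P) and 5.91, 7.17 and 7.63 (L2P). Its E1KD arrays were spread over more than 1 log2 unit, so that the lung differences of 0.69 (L1P) and 0.80 (L2P) lay within that range.

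Both DNA repair genes were higher in the lung lines. Apex1, the main apurinic endonuclease of base excision repair, read 10.77, 10.64 and 10.82 (NMuMG), 10.78, 10.46 and 10.48 (E1KD), 11.13, 10.84 and 10.93 (M1P), 11.13, 10.97 and 11.01 (L1P) and 11.37, 10.99 and 11.06 (L2P). Parp2, which marks DNA breaks with poly(ADP-ribose), read 7.08, 7.30 and 7.32 (NMuMG), 7.45, 7.66 and 7.70 (E1KD), 6.27, 6.97 and 7.25 (M1P), 8.32, 8.31 and 8.37 (L1P) and 7.997, 8.30 and 8.24 (L2P). For both genes every lung array lay above every E1KD array, with differences of 0.46 (L1P) and 0.57 (L2P) for Apex1 and of 0.73 (L1P) and 0.57 (L2P) for Parp2.

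The nuclear transport receptors, which carry proteins through the nuclear pore, held the gene with the largest rise in the mean of both lung lines among the 47 genes above 6. Ipo4, an importin that brings histones and ribosomal proteins into the nucleus, read 9.38, 9.68 and 9.11 (NMuMG), 8.999, 8.43 and 8.84 (E1KD), 9.84, 9.10 and 8.99 (M1P), 10.76, 10.47 and 10.39 (L1P) and 10.92, 10.76 and 10.58 (L2P). Its lung arrays did not overlap those of any other line, and the differences from E1KD were 1.79 (L1P) and 1.996 (L2P), or 3.45-fold and 3.99-fold. Xpo7 also had all lung arrays above E1KD, by a mean of 0.67. Ipo5 overlapped E1KD through L2P array 1 alone, at 10.13 against 10.25 for the highest E1KD array, and Kpna3 through L2P array 1 at 7.87 and L1P arrays 1 and 2 at 8.72 and 8.69 against 8.75. Xpo4, an exportin with a mean of 5.58, read 4.98, 5.36 and 5.93 (NMuMG), 5.57, 5.71 and 5.55 (E1KD), 3.67, 3.98 and 5.28 (M1P), 6.57, 6.42 and 6.69 (L1P) and 5.80, 6.13 and 5.98 (L2P). All its lung arrays were above those of E1KD, by 0.95 (L1P) and 0.36 (L2P).

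Ajuba, Lats2 and Lmo7 are linked to cell junctions and to the Hippo pathway, in which the kinase Lats2 restrains the growth regulators Yap and Taz and Ajuba, a LIM protein, holds Lats kinases back. Lmo7, a LIM-domain protein of adherens junctions, read 8.05, 8.34 and 8.42 (NMuMG), 7.70, 7.61 and 7.97 (E1KD), 5.27, 7.58 and 8.12 (M1P), 9.66, 9.52 and 9.94 (L1P) and 8.93, 9.47 and 9.59 (L2P). Its lung arrays stood clear of those of the other lines, by 1.95 (L1P) and 1.57 (L2P) over E1KD, while M1P array 1 was the lowest of all. Lats2 read 5.77, 6.18 and 5.94 (NMuMG), 6.14, 6.004 and 6.31 (E1KD), 4.27, 5.98 and 5.44 (M1P), 6.94, 6.40 and 7.01 (L1P) and 6.59, 6.68 and 6.77 (L2P). For Ajuba the values were 10.15, 10.09 and 10.05 (NMuMG), 9.98, 9.90 and 10.03 (E1KD), 10.52, 10.37 and 9.47 (M1P), 10.52, 10.19 and 10.36 (L1P) and 10.59, 10.32 and 10.03 (L2P). Lats2 and Ajuba were both separated from E1KD, Lats2 by 0.63 (L1P) and 0.53 (L2P) and Ajuba, whose lowest lung array of 10.03 was level with the highest of E1KD to 2 decimals, by 0.39 (L1P) and 0.34 (L2P).

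Metabolic genes held the next largest rise on the same measure. Gch1, GTP cyclohydrolase 1, which sets the rate of tetrahydrobiopterin synthesis, read 8.60, 8.81 and 8.22 (NMuMG), 5.99, 5.87 and 6.56 (E1KD), 8.42, 7.20 and 7.14 (M1P), 7.93, 8.27 and 7.78 (L1P) and 8.09, 7.86 and 7.71 (L2P). E1KD was low, 2.40 below NMuMG, and the lung lines stood between them, 1.85 (L1P) and 1.75 (L2P) above E1KD and 0.55 and 0.65 below NMuMG. Gch1 in M1P was also above E1KD, by 1.44, or by 1.00 with array 3 alone, so the lung lines were not the only ones in which it was higher. Sucla2, a subunit of succinyl-CoA synthetase, and Pcca, a subunit of propionyl-CoA carboxylase, had mean lung differences of 0.67 and 0.93, and of these only Pcca had all lung arrays above E1KD.

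The promoters of Ipo4, Gch1 and Lmo7 are shown because these 3 had the largest lung differences among the 47 genes. Each line gives the 250 bases before the annotated start, 5' to 3' on the gene's strand, from RefSeq on GRCm38.p6, and capitals mark GC boxes (GGGCGG or its reverse complement) and CCAAT boxes (CCAAT or its reverse complement). Their positions are chr14:55635685-55635934 (minus strand) for Ipo4, chr14:47189414-47189663 (minus strand) for Gch1 and chr14:101729678-101729927 (plus strand) for Lmo7.
Ipo4: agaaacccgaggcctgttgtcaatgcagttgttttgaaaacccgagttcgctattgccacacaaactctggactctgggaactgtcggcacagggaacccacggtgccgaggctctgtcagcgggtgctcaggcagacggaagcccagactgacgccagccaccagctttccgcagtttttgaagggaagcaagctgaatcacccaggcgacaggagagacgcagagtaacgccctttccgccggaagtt
Gch1: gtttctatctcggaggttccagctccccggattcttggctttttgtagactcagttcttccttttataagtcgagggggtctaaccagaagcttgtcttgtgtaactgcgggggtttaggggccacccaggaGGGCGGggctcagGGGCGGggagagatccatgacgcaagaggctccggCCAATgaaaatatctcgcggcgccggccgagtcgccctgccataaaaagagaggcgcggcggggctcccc
Lmo7: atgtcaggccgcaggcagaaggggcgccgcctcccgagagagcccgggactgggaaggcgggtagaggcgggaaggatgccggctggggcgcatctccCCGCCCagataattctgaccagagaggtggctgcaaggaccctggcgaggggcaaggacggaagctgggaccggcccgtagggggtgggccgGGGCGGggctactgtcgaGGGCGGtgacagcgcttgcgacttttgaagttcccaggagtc
Ipo4 held neither motif in this window and 15 CpG dinucleotides, Gch1 held 2 GC boxes, 1 CCAAT box and 17 CpG, and Lmo7 held 3 GC boxes, no CCAAT box and 20 CpG. Over the 27025 promoters of the RefSeq table, 32.9% held a GC box and 34.5% a CCAAT box, and over the 6788 of genes above 6 these shares were 63.3% and 36.8%. Only 37 of the 56 measured genes had an entry in that table, too few for a comparison of motifs between the listed genes and others.

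RNA-binding genes were less even. Mbnl2, a splicing regulator of the muscleblind family, read 8.46, 7.25 and 8.29 (NMuMG), 8.22, 8.68 and 8.12 (E1KD), 5.47, 6.89 and 8.54 (M1P), 9.38, 9.14 and 9.86 (L1P) and 8.76, 10.17 and 10.004 (L2P). Its lung arrays lay above E1KD, by 1.12 (L1P) and 1.30 (L2P), with NMuMG array 2 and M1P arrays 1 and 2 far lower. Ngdn, a protein of the small ribosomal subunit's assembly, was the other of the 6 genes with no overlap, at 0.82. Dis3, the exosome's catalytic exoribonuclease, read 8.88, 8.74 and 9.27 (NMuMG), 8.75, 8.87 and 8.59 (E1KD), 5.13, 7.30 and 8.30 (M1P), 9.49, 9.31 and 9.64 (L1P) and 8.78, 9.17 and 9.28 (L2P). L1P was separated from E1KD for Dis3, whereas L2P array 1 at 8.78 fell among the E1KD arrays. Pspc1, a paraspeckle protein, read 7.57, 7.80 and 8.11 (NMuMG), 6.79, 7.13 and 7.40 (E1KD), 5.02, 6.21 and 6.52 (M1P), 7.003, 6.98 and 7.43 (L1P) and 6.88, 7.50 and 7.50 (L2P). The lung and E1KD arrays of Pspc1 overlapped, with differences of 0.03 (L1P) and 0.19 (L2P). Rbm26 and Pabpn1, the nuclear poly(A)-binding protein, had mean lung differences of 0.78 and 0.28, with overlap.

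Transcription factors and cofactors were separated from E1KD in 5 of 6 cases, against the 66.0% of the list given above. Elf1, an ETS-family factor, read 6.38, 6.95 and 6.98 (NMuMG), 6.04, 6.32 and 6.82 (E1KD), 4.64, 6.67 and 6.67 (M1P), 7.58, 7.92 and 7.90 (L1P) and 6.92, 7.74 and 7.81 (L2P). All its lung arrays were higher than those of E1KD, by 1.41 (L1P) and 1.10 (L2P). Klf5, a zinc-finger factor of proliferating epithelium, read 9.38, 9.56 and 9.24 (NMuMG), 9.10, 8.91 and 8.99 (E1KD), 8.62, 9.36 and 8.61 (M1P), 10.14, 9.53 and 9.81 (L1P) and 10.05, 9.72 and 9.48 (L2P). Its lung arrays were above E1KD by 0.83 (L1P) and 0.75 (L2P), and E1KD lay 0.40 below NMuMG. Elp3, Med4 and Tsc22d1 were separated too, at mean lung differences of 0.78, 0.55 and 0.26, while Zmym2 overlapped at 0.55. Hmbox1, with a mean of 4.93, had differences of -0.03 (L1P) and 0.12 (L2P).

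Of the ubiquitin genes, Fbxo34, Ndfip2 and Ubac2 had all lung arrays above E1KD, at mean differences of 0.52, 0.89 and 0.62. Mycbp2, a large ubiquitin ligase, read 6.78, 6.65 and 6.88 (NMuMG), 7.26, 7.66 and 7.54 (E1KD), 3.66, 5.12 and 6.01 (M1P), 8.33, 8.31 and 8.73 (L1P) and 6.81, 8.78 and 8.61 (L2P). L1P was above E1KD for this gene, and L2P array 1 at 6.81 lay below it. Peli2, a ligase of the Pellino family with a mean of 4.83, read 4.26, 4.55 and 4.28 (NMuMG), 4.98, 4.39 and 4.66 (E1KD), 6.53, 5.79 and 5.73 (M1P), 4.66, 4.66 and 4.74 (L1P) and 4.63, 4.36 and 4.27 (L2P). The M1P arrays were the highest for Peli2, and the lung arrays overlapped those of E1KD, at 0.01 (L1P) and -0.26 (L2P). Trim13 had a mean of 5.78 and differences of 0.43 (L1P) and 0.49 (L2P).

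Signalling genes spanned both patterns. Gpr180, a membrane protein named as an orphan G protein-coupled receptor, read 7.97, 7.64 and 7.86 (NMuMG), 7.02, 6.65 and 6.89 (E1KD), 8.24, 7.81 and 7.78 (M1P), 8.12, 7.89 and 7.90 (L1P) and 8.50, 8.06 and 8.03 (L2P). E1KD was the lowest line for Gpr180, 0.97 below NMuMG, and M1P and the lung lines all stood near NMuMG. Bmp4, a secreted ligand of the BMP family that patterns mammary epithelium, read 7.31, 7.26 and 7.07 (NMuMG), 5.29, 5.59 and 5.89 (E1KD), 6.67, 6.42 and 6.06 (M1P), 6.21, 6.31 and 6.40 (L1P) and 6.88, 6.28 and 6.40 (L2P). NMuMG was highest and E1KD lowest, with the lung lines 0.72 (L1P) and 0.93 (L2P) above E1KD and below every NMuMG array. Ptk2b, the focal adhesion kinase relative Pyk2, was the gene just inside the level of 6 with a mean of 6.03. It read 6.02, 6.37 and 5.95 (NMuMG), 6.04, 5.71 and 6.02 (E1KD), 6.64, 6.37 and 5.90 (M1P), 6.29, 5.68 and 5.97 (L1P) and 6.34, 5.67 and 5.52 (L2P). The arrays of the lines overlapped, and the lung differences were 0.05 (L1P) and -0.08 (L2P). Ppp2r2a and Stk24 were separated from E1KD, at 0.61 and 0.66, and Akap11 and Spry2 overlapped at 0.74 and 0.45. Fzd3, a Wnt receptor with a mean of 4.44, had differences of -0.40 (L1P) and -0.33 (L2P).

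Clu, the secreted chaperone clusterin, went against the rest. It read 12.95, 12.83 and 12.53 (NMuMG), 11.85, 11.15 and 11.52 (E1KD), 12.67, 12.05 and 11.49 (M1P), 10.64, 10.32 and 10.002 (L1P) and 11.37, 10.27 and 10.10 (L2P). All L1P arrays were below all E1KD arrays, by 1.19 in the mean, and L2P was 0.93 lower with array 1 inside the range of E1KD. Scara3, a scavenger receptor of the neighbouring stretch, had a mean of 4.55 and read 6.91, 7.16 and 6.84 (NMuMG), 5.39, 5.32 and 5.83 (E1KD), 6.81, 6.52 and 4.38 (M1P), 2.40, 1.92 and 2.38 (L1P) and 2.12, 2.24 and 2.04 (L2P). Each lung array of Scara3 lay at or below 2.40, near the lowest values on the arrays, so its differences of -3.28 (L1P) and -3.38 (L2P) compare E1KD with a signal close to the floor. M1P array 3 at 4.38 lay apart from the other M1P arrays for this gene.

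The other genes outside these roles varied in the size of their lung difference. Tpt1, the translationally controlled tumour protein and the most abundant signal of the list, read 14.11, 14.17 and 14.08 (NMuMG), 14.01, 14.05 and 14.09 (E1KD), 13.85, 14.08 and 14.07 (M1P), 14.23, 14.27 and 14.23 (L1P) and 14.20, 14.24 and 14.27 (L2P). All its lung arrays were above E1KD although the differences were small, at 0.20 (L1P) and 0.18 (L2P). Dpysl2, a microtubule-binding protein also called Crmp2, read 9.41, 9.79 and 9.91 (NMuMG), 10.40, 10.16 and 10.31 (E1KD), 8.94, 10.35 and 9.91 (M1P), 10.42, 10.47 and 10.13 (L1P) and 10.35, 10.17 and 10.17 (L2P). Bcl2l2, the anti-apoptotic protein Bcl-w, read 6.52, 6.92 and 6.79 (NMuMG), 6.72, 6.67 and 6.60 (E1KD), 6.16, 6.15 and 6.01 (M1P), 6.45, 6.73 and 6.33 (L1P) and 6.72, 6.51 and 6.55 (L2P). Neither gene was separated from E1KD in the lung lines: the differences were 0.05 (L1P) and -0.06 (L2P) for Dpysl2 and -0.16 (L1P) and -0.07 (L2P) for Bcl2l2. Itm2b, a membrane protein, had all lung arrays above E1KD at 0.52, and Ktn1, the kinesin-binding protein kinectin, overlapped at 1.09.

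**Figure D3:**
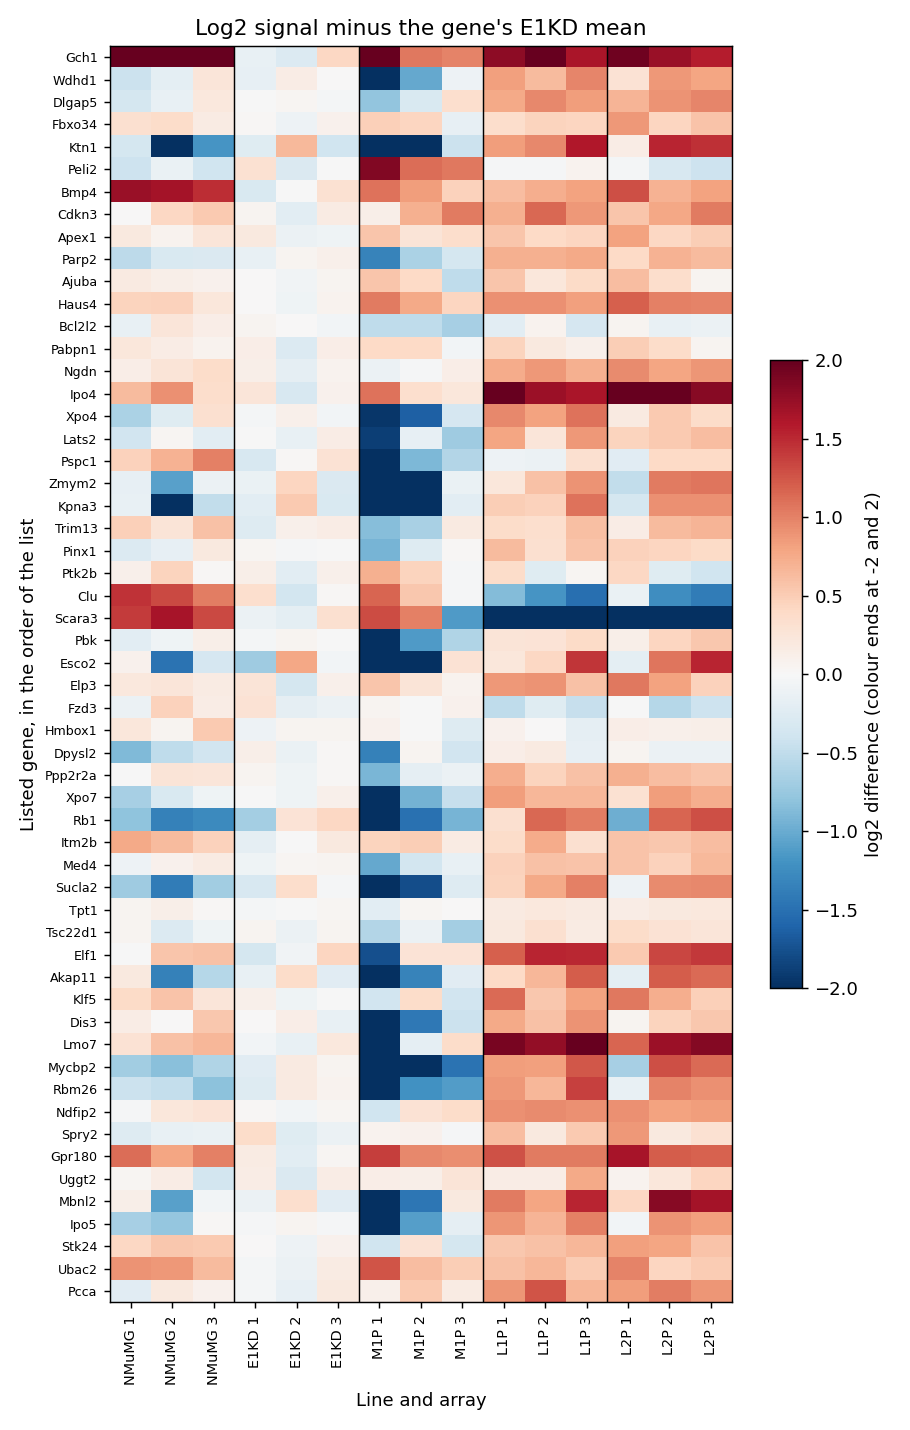
Log2 signal minus the gene's E1KD mean for the 56 measured genes (rows, in the order of the list) on each of the 15 arrays (columns), with colour ending at -2 and 2. The 6 lung columns are mostly red, with Clu and Scara3 blue, and M1P arrays 1 and 2 are blue for many genes such as Mycbp2 and Kpna3.

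The size of the difference varied with the level of signal. The 24 listed genes with a mean from 6 to 8 had a median lung difference of 0.73, the 14 from 8 to 10 also 0.73, and the 9 above 10 had 0.28. The other chromosome 14 genes had 0.57, 0.55 and 0.50 in the same classes. Of the 9 genes above 10, Tpt1, Pabpn1, Tsc22d1, Ajuba, Dpysl2 and Clu were at 0.36 or lower. The part of the signal level in these differences was not tested. Most genes had more than 1 probe set: 41 of the 56 had several, 17 had several above 6, and in 0 of these 17 did the probe sets differ in the direction of the lung difference.

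Relatives of the listed genes on other chromosomes were taken as a comparison, such as Rbl2 for Rb1, Lats1 for Lats2, Parp1 for Parp2 and Ipo7 for Ipo4. Of 42 relatives, 41 were measured and 37 had a mean above 6. Their median lung difference was 0.06, with 22 higher and 15 lower than E1KD, and 3 (8.11%) had all lung arrays above E1KD, near the 10.4% of all genes above 6. Rbl2 stood at -0.46, Lats1 at 0.08, Parp1 at 0.00 and Ipo7 at 0.60. Bnip3, the relative of the unmeasured Bnip3l, was the highest at 1.10.

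The order of the genes along chromosome 14 showed 2 departures from an even difference. The first concerned the start of the chromosome. In the first 60 genes above 6, from Abhd6 to Pbrm1, none of them listed, E1KD was already a median 0.92 above NMuMG. All E1KD arrays lay above NMuMG for 51 of the 60 genes (85.0%), against 23.3% of all genes above 6. The lung lines were a further 0.35 above E1KD there. Over all 95 genes before the first listed one, from Abhd6 to Fermt2, the median of E1KD over NMuMG was lower, at 0.63. The share without overlap was 66.3%. The 20 genes from Smim4 to Anxa8, after the first 60, had a median of 0.24. From Bmp4, the first listed gene in chromosome order, to the last gene Tmtc4, the 168 genes had a median of -0.18 for E1KD against NMuMG and of 0.67 for the lung lines against E1KD. All 47 listed genes above 6 lay in this stretch from Bmp4 on. These stretches were set after the values had been seen.

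**Figure D4:**
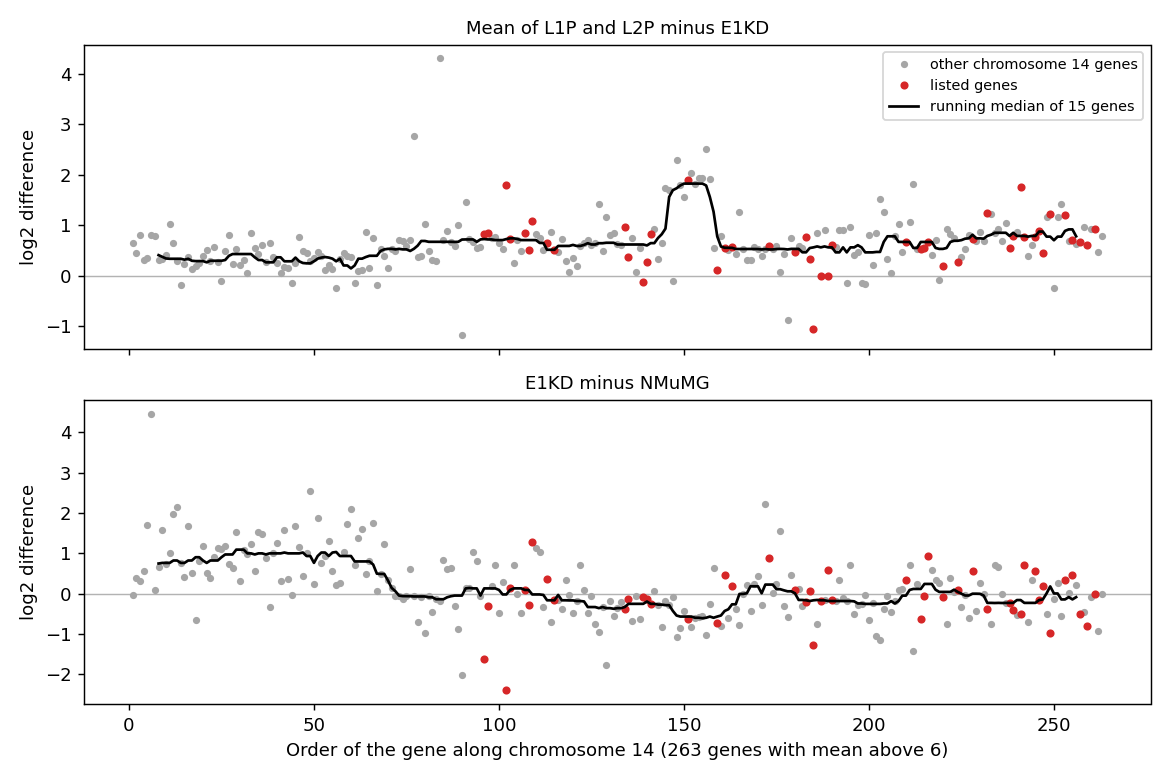
Log2 difference of the mean of L1P and L2P from E1KD (top) and of E1KD from NMuMG (bottom) for 263 chromosome 14 genes with a mean above 6, in chromosome order, with a running median of 15 genes; red points are the 47 listed genes. The top line stays above 0 with a peak around Ipo4, and the bottom line lies around 0.92 over the first 60 genes. After them the bottom line falls: the median is 0.24 over the next 20 genes and -0.18 from Bmp4 on. Over the 20 genes from Ngdn to 2410022M11Rik, which include Ipo4, it is -0.55.

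The second departure surrounded Ipo4. It was 1 of 10 consecutive genes above 6, from Psme1 to Nop9, whose mean lung difference exceeded 1: Psme1, Emc9, Rnf31, Ipo4, Mdp1, Nedd8, Tinf2, Rabggta, Dhrs1 and Nop9. This run too was found from the values. Their median was 1.74 in L1P and 2.11 in L2P, or 3.80-fold over E1KD in the mean of both, so Ipo4 at 1.89 lay at the middle of its neighbours. Among the genes of the run, Psme1 is a proteasome activator subunit, Nedd8 a ubiquitin-like modifier, Tinf2 a shelterin component at telomeres and Rnf31 the catalytic subunit of the linear ubiquitin ligase. Before it, Pck2 and Dcaf11 stood at 1.73 and 1.70, with Fitm1 between them and the run at -0.10. After it, Mphosph8 was at 0.56 and the listed gene Pspc1 at 0.11.

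All 10 genes of the run were also lower in E1KD than in NMuMG, by a median of -0.62, against 4127 of all 8209 genes above 6. M1P was above E1KD in the run by 0.60, or by 0.33 with array 3 alone. L2P exceeded L1P by 0.21 to 0.72 in the 10 genes, of which 0 passed limma's test for L2P against L1P at an adjusted p under 0.05. Over all 216 other chromosome 14 genes above 6 that number was also 0. At an unadjusted p under 0.05, 5 of the 216 were higher and 1 lower, against 300 and 114 of all 18193 genes. The lung and E1KD values set the run, so nothing is read from its counts or from its differences from E1KD.

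**Figure D5:**
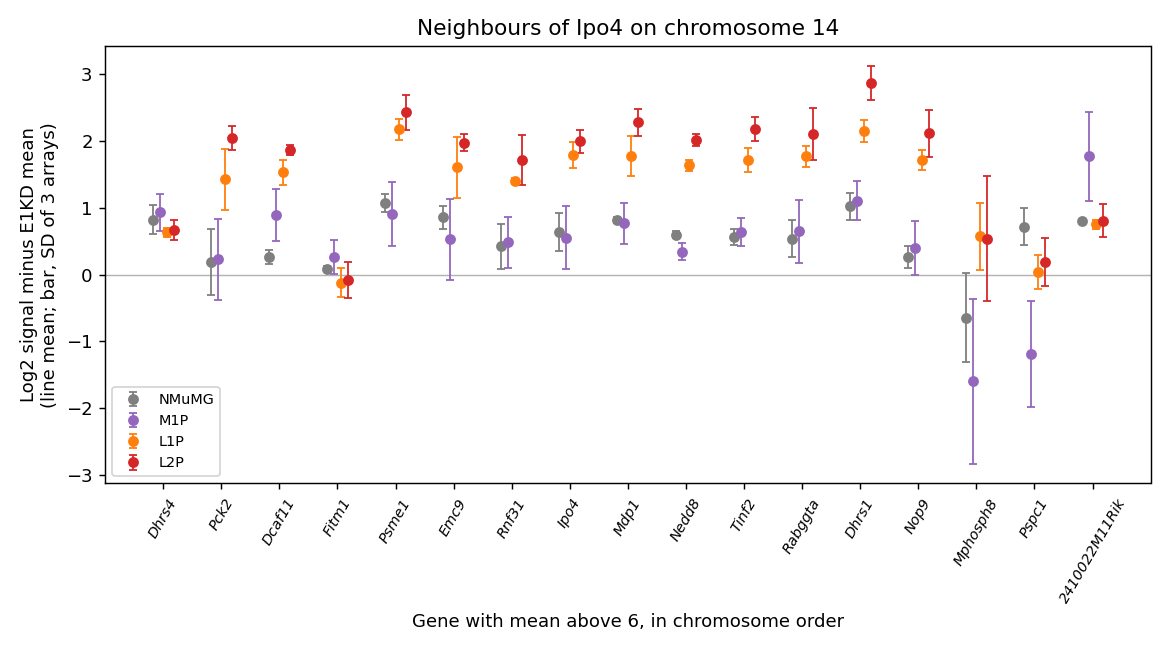
Line means of log2 signal minus the E1KD mean, with the SD of 3 arrays, for Ipo4 and its neighbours above 6 in chromosome order. From Psme1 to Nop9 the lung lines stand at 1.40 to 2.87, while Fitm1 is at -0.12 and -0.08 and Pspc1 at 0.03 and 0.19.

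Among the chromosome 14 genes that are not listed, the largest lung differences were those of Sncg at 4.31, Wdfy4 at 2.77 and Dhrs1 at 2.51. Sncg, gamma-synuclein, read 4.22 ± 0.43 (SD, n = 3) for NMuMG, 4.04 ± 0.09 for E1KD, 6.84 ± 0.74 for M1P (6.11 on array 3), 7.98 ± 0.50 for L1P and 8.71 ± 0.23 for L2P. The smallest were Prxl2a at -1.18, Fdft1, squalene synthase, at -0.88 and Prkcd, protein kinase C delta, at -0.24. Clu at -1.06 was thus the second lowest of the 263 chromosome 14 genes above 6.

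M1P was tested against NMuMG across all 18193 genes with limma. The genes were not chosen on the levels of these lines, although all 15 arrays, those of the lung lines and E1KD included, set the spread behind the p-values. Of the 56 measured genes, 1 rose and 9 fell at an adjusted p under 0.05, against 7.28% of all genes that rose and 4.56% that fell. Peli2 rose (1.66 ± 0.21, adjusted p = 0.000166, with standard errors after ±, n = 3 arrays per line). Dis3 (-2.05 ± 0.55, adjusted p = 0.0279) and Pspc1 (-1.91 ± 0.33, adjusted p = 0.002) fell the most, followed by Mycbp2 (-1.84 ± 0.53, adjusted p = 0.0411), Pbk (-1.28 ± 0.30, adjusted p = 0.0154) and Xpo4 (-1.12 ± 0.33, adjusted p = 0.0458). For all of these 5 genes the M1P arrays ranged over more than 1 log2 unit, and array 3 was the nearest to the mean of NMuMG. Trim13, Bmp4, Stk24 and Bcl2l2 also fell, by smaller amounts of 0.89, 0.83, 0.65 and 0.63. At an unadjusted p under 0.05, 2 of the 56 were higher and 22 lower, against 3073 and 2094 of all 18193 genes.

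These calls depended on which arrays were used. Without M1P arrays 1 and 2, 1 of the 56 rose and 7 fell, against 3.53% and 4.53% of all genes. Peli2 again rose (1.37 ± 0.22, adjusted p = 0.00208), and Pspc1 (-1.31 ± 0.31, adjusted p = 0.0211), Bmp4 (-1.15 ± 0.25, adjusted p = 0.0137), Stk24 (-0.84 ± 0.15, adjusted p = 0.00369) and Bcl2l2 (-0.73 ± 0.19, adjusted p = 0.0338) again fell, while Dis3, Mycbp2, Pbk, Xpo4 and Trim13 no longer passed. Scara3 (-2.59 ± 0.23, adjusted p = 2.59e-05), Gch1 (-1.40 ± 0.29, adjusted p = 0.0116) and Tsc22d1 (-0.58 ± 0.16, adjusted p = 0.0394) fell in that fit, in which the single M1P array is assumed to vary like the arrays of the other lines. With all arrays and only genes above 6 in the fit, 7 of 47 listed genes passed (14.9%), against 17.9% of the 8209 genes. No excess is therefore read from the 10 calls. The 10 calls (17.9% of the 56, against 11.8% of all genes) became 25 without M1P array 3 (44.6% against 28.6%). Without NMuMG arrays 1, 2 and 3 they became 6, 5 and 4, where 7.52%, 8% and 6.23% of all genes passed. When the other lines were dropped from the model, 1 of the 56 passed, against 2.46% of all genes, and with weighted arrays also 1, against 2.17%. Peli2 passed with its brightest probe set, an _s_at set, but stood at 0.38 (adjusted p = 0.164 by limma) without _x_at and _s_at probe sets. Bcl2l2 fell only with its brightest probe set: it stood at 0.40 with the probe set of largest variance.

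L2P was set against L1P to describe how the listed genes differed between the lung lines. The choice of the genes used the arrays of both lines and may favour genes alike in them. Nothing is therefore read from the counts below. By limma, 0 of the 56 genes rose and 0 fell at an adjusted p under 0.05, against 0.0934% and 0.0495% of all genes. At an unadjusted p under 0.05 the counts were also 0 and 0, against 300 and 114 of all 18193 genes. The median difference was -0.02 over the 47 genes above 6, between -0.40 for Dis3 and 0.26 for Clu. Xpo4, below the level of 6, had the largest difference of the 56 at -0.59 ± 0.33, adjusted p = 1. The standard errors of the 56 differences ran from 0.10 to 0.80 with a median of 0.23, and without M1P arrays 1 and 2 from 0.09 to 0.52 with a median of 0.17. A difference that misses the threshold does not show that the lines are alike.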

How the data were processed

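Gene expression was read from 1 table of 45101 Affymetrix probe sets on 15 arrays. Its values are log2 signals as deposited by the authors. RMA, MAS5 and Affymetrix Expression Console are named in the submitters' processing notes; which of them made the values is not stated, and no version is given in the sources used here. Signals ran from 1.53 to 14.68, with array medians of 4.17 to 4.26, and were used without further scaling. Detection calls were not applied, so weak and absent signals are not separated. Arrays have no read depth, and 3 arrays per line limit the precision.

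The platform table named the probe sets, with symbols updated by Entrez identifier for 34741 and kept for 204; 932 probe sets with several symbols, 9160 with none and 64 controls stayed out. Each of 18193 genes was taken from its probe set of highest mean. The order along chromosome 14 came from a RefSeq table of GRCm38.p6; the probe table names no build. The listed genes, their role groups, relatives and marker lists were chosen with earlier results of these data known. Differences are differences of line means, and medians were taken over genes with a mean above 6. Moderated tests with limma 3.58.1 in R 4.3.3 used all 15 arrays with 1 coefficient per line (10 residual and 2.98 prior degrees of freedom), with Benjamini-Hochberg adjustment over all genes and a threshold of 0.05. The fit was checked on simulated data in which each gene had the same spread in every line. The M1P arrays varied more than those of the other lines, so that check does not cover the M1P tests.

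Genes given with every array were the 6 largest and 4 smallest lung differences among the 47 genes above 6, up to 6 called in each tested comparison by size, the genes nearest the level of 6, and 10 chosen by role (Rb1, Bmp4, Clu, Klf5, Lats2, Ajuba, Apex1, Parp2, Bnip3l, which has no value, and Tpt1). The 3 largest and 3 smallest of the other chromosome 14 genes are named by their lung difference. Alternatives covered the probe set per gene, normalization, centring, the level filter, array weights, the variance prior, the lines in the model, a replicate block and leaving out arrays; the no-overlap counts without 1 array were added after seeing the data. Replicate numbers were not used to pair the arrays in the main fit. Deviations of same-numbered arrays correlated at -0.0731, 0.359 and 0.682 between M1P and NMuMG and at 0.643, -0.216 and 0.737 between L2P and L1P. They thus differed from number to number, and a fit with a replicate block is given below.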

Additional observations from a re-analysis of the deposited data

How the results depend on the processing

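Medians of the listed genes kept their sign in every alternative run, except L2P minus L1P, which lay near 0 throughout. With the mean of all probe sets, the median became 0.63 for L1P minus E1KD, 0.49 for L1P minus NMuMG, 0.44 for L2P minus NMuMG and -0.0020 for M1P minus E1KD. With the probe set of largest variance it became 0.63 for L2P minus NMuMG and -0.042 for L2P minus L1P. For genes above 8 it was 0.60 for L1P minus E1KD, 0.49 for L1P minus NMuMG, 0.46 for L2P minus NMuMG, -0.15 for M1P minus E1KD and 0.039 for L2P minus L1P. Quantile normalization gave 0.50 for L1P minus NMuMG, and centring on genes off chromosome 14 gave -0.055 for L2P minus L1P. Without M1P arrays 1 and 2 the medians of M1P were -0.10 against E1KD and -0.14 against NMuMG. Leaving out 1 array at a time gave 0.63 to 0.74 for L1P minus E1KD, 0.55 to 0.68 for L2P minus E1KD, 0.49 to 0.65 for L1P minus NMuMG, 0.48 to 0.61 for L2P minus NMuMG, -0.14 to -0.058 for E1KD minus NMuMG, -0.51 to -0.032 for M1P minus E1KD, -0.63 to -0.25 for M1P minus NMuMG and -0.048 to 0.015 for L2P minus L1P. M1P array 1 moved both M1P medians the most, to -0.032 and -0.25 without it. The cause of these moves was not tested.

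The 10 listed genes that passed for M1P minus NMuMG became 1 with only these lines in the model, 1 with array weights and 4 to 25 when 1 array was left out. The shares of all genes that passed were 2.46%, 2.17% and 6.23% to 28.6% in these fits, and the cause was not tested. For L2P minus L1P the number was 0 in every alternative run, where 0.0609% to 1.01% of the tested genes passed. With replicate number as a block, 14 of the 56 genes passed for M1P minus NMuMG, against 16.5% of all genes. For L2P minus L1P 0 passed, against 0.165%. The medians did not move. The labels give same-numbered arrays no link but the number, although deviations of some of them correlated, at up to 0.737. Bcl2l2 turned to 0.40 with the probe set of largest variance and to 0.012 with the mean of all probe sets. Of the other values for single genes, 115 kept direction and side of the threshold and 49 kept direction but no longer passed. The 10 adjusted p-values each ranged widely, such as 0.000112 to 0.0827 for Pspc1 and 0.000107 to 0.164 for Peli2.

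Each line is 1 line and chromosome 14 DNA was not measured. No detection calls were used here, so differences of genes with low signals, such as Scara3 and Uggt2, have no stated floor.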
